A study of Homo sapiens with 60 samples.

Results

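The comparison described here set SW1783 cells given the high dose of Citri Unshius Pericarpium against the same cells given its low dose. Citri Unshius Pericarpium is the dried peel of a mandarin, used in Korean medicine, and the extract was made with 70% ethanol. The high dose was 500 µg/mL and the low dose 20 µg/mL, each for 24 h and with 3 libraries, so that 6 of the 60 libraries of the series entered the comparison. Beside them stand 3 libraries at the medium dose of 100 µg/mL. There are also 9 libraries of Cimicifugae Rhizoma, likewise extracted with ethanol, at the same 3 doses and times. A further 3 libraries are of cells given the vehicle DMSO (0.1% per the labels, 2% per the series text) for 24 h. All Citri and Cimicifugae libraries carry the set number 12 in their names and the vehicle libraries carry none. SW1783 is an established human astrocytoma line, here kept in Leibovitz's L-15, a medium that supplies galactose in place of glucose. The series measured many herbal extracts in this way to describe each by the expression profile it causes, and a dose comparison within an extract asks which genes follow the amount given.

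Of 9 astrocyte markers, 4 passed the filter on low counts. Summed over 3 libraries each, GFAP, the glial intermediate filament, had 15 counts at the high dose and 14 at the low dose, and the water channel AQP4 and the lipid carrier FABP7 had 0 in both. GJA1, the gap junction protein of astrocytes and many other cells, averaged 220 CPM at the high dose and 213 CPM at the low dose, the transcription factor SOX9 57.9 CPM at the high dose and 66.4 CPM at the low dose, and the glutamate transporter SLC1A3 30.3 CPM at the high dose and 36.7 CPM at the low dose. The mesenchymal glioma markers CD44, VIM, NES, CHI3L1, LGALS3 and ANXA1 were all measured, and their summed level lay between 9050 and 9390 CPM at the high dose and between 9220 and 9880 CPM at the low dose. CPM here is edgeR's measure of counts relative to library size, with library sizes scaled by TMM, a method that evens out libraries of different make-up. Nothing in the labels says that the 3 libraries of a dose came from separate cultures, so the p-values given below rest on differences among libraries that may be technical.

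Cells read their sugar supply partly through MondoA, a transcription factor encoded by MLXIP that works with the partner MLX. When phosphorylated hexoses accumulate, MondoA and MLX enter the nucleus and bind carbohydrate response elements, pairs of E-box-like motifs near the start of their target genes. Their best known targets are the alpha-arrestins TXNIP and ARRDC4, which promote the removal of glucose transporters from the cell surface, and TXNIP also binds and inhibits the antioxidant protein thioredoxin.

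TXNIP and ARRDC4 were the genes with the largest rises among those named below, and their promoters are shown because carbohydrate response elements have been described in both genes. The windows run from 250 bases before to 50 bases after the start in RefSeq's table for GRCh38.p14. TXNIP lies on the minus strand (chr1:145996530-145996829) and ARRDC4 on the plus strand (chr15:97960453-97960752). Capitals mark the match to a pair of E-box-like motifs in TXNIP, CACNNG and CACNNG with 5 bases between, and the match to the full E-box CACGTG in ARRDC4.
TXNIP: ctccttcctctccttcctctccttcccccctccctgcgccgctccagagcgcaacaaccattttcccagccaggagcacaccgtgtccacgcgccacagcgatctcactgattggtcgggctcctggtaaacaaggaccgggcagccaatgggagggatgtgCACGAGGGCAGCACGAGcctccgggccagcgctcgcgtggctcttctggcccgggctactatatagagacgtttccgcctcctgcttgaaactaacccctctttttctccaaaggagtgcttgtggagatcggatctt
ARRDC4: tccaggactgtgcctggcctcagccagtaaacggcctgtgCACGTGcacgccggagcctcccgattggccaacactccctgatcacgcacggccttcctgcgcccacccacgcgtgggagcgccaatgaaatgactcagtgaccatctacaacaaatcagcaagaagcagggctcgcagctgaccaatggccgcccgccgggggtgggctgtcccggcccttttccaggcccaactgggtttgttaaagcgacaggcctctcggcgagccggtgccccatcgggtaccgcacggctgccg
The TXNIP match began 88 bases before the start and the ARRDC4 match 210 bases before it. Searched on both strands, where the patterns may overlap, the pair was found in 0.982% and the full E-box in 7.26% of 35116 promoters of the same length. The pair was written down after the TXNIP sequence had been read, so its presence there is a description. Of the 110 genes that the naming rule picked, 87 had a promoter in the table, and the pair also stood in the windows of BHLHE40 and NQO1 but not in that of ARRDC4. The full E-box stood in at least 1 window of 11 of the 87, of which 5 were called higher (ARRDC4, ALDOC, BHLHE40, PER1 and PLIN2) and 6 lower (ABCA1, ATF4, CANX, INSIG1, LSS and MCM2). Some genes have several windows and were counted if any of them held the motif. These counts of genes are therefore not comparable with the shares of single promoters given above. The table's TXNIP start lies 21 bases and its ARRDC4 start 5 bases from those of GENCODE v29, from which all gene positions below are taken.

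Of 16626 genes tested with edgeR's quasi-likelihood test, 2286 differed between the high and the low dose at a Benjamini-Hochberg adjusted p under 0.05, which is 13.7% of those tested. At the high dose 1054 genes were higher (6.34%) and 1232 lower (7.41%). These shares are given as background for the counts of each gene group below. The groups and their members were chosen with earlier results of these data known, so their counts are descriptions and no test. The median log2 fold change (high over low) of all genes was -0.000708. Most changes were small, with a median size of 0.237 (log2) among the called genes, and 46 genes rose and 30 fell at least 2-fold. Without regard to the test, the 3 high-dose libraries lay wholly above or wholly below the 3 low-dose libraries for 5281 genes (31.8%). The 12 largest rises and falls named below were picked only among genes with such a gap. Its presence in them is therefore no added support. Library totals were alike, from 20914228 to 29165973 counts at the high dose and from 21092941 to 28042510 at the low dose. The number of called genes depends on which libraries estimate the spread. It was 188 when all 57 replicated libraries of the series entered the fit and 2223 when only the 6 Citri libraries did, and without replicate 2 of the high dose it was 1495.

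**Figure D1:**
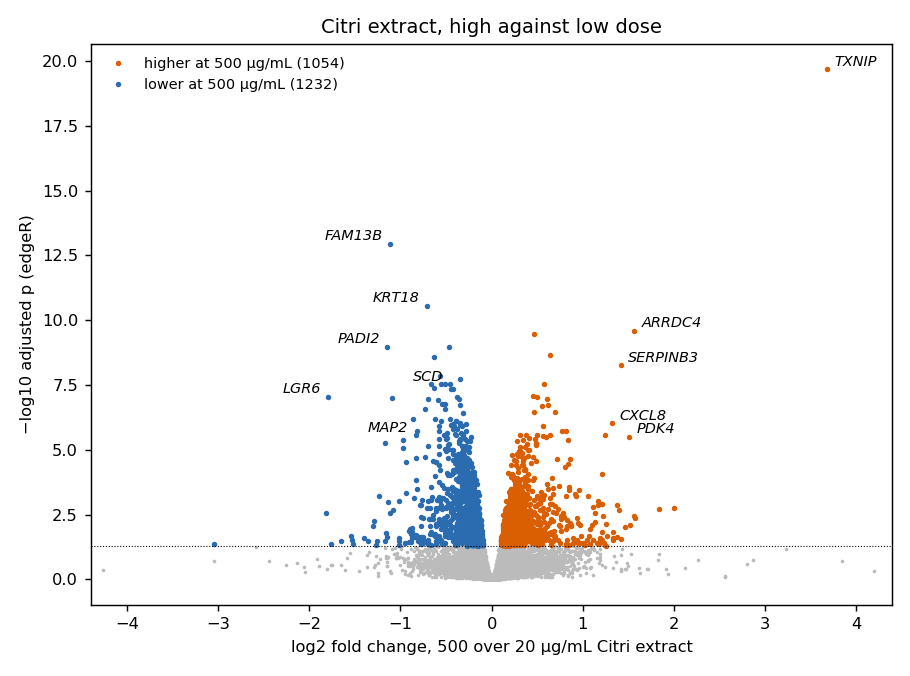
Log2 fold change of each tested gene (500 over 20 µg/mL Citri extract, x axis) against its edgeR adjusted p on a -log10 scale (y axis), with called genes coloured, the threshold of 0.05 dotted and 13 genes beyond the x axis not drawn. TXNIP stands alone at 3.68 on the x axis, and most called genes lie within 1 log2 unit of 0.

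TXNIP (chromosome 1, 145992435 to 145996600, minus strand) showed the strongest response. Its level was 130, 145 and 126 CPM in the high-dose libraries, against 10.1, 10.6 and 10.6 CPM in the low-dose libraries. The groups were far apart, and the replicates of each lay close together. TXNIP averaged 134 ± 9.95 CPM at the high dose and 10.4 ± 0.279 CPM at the low dose (SD, n = 3 each), a 12.8-fold difference with a log2 fold change of 3.68 ± 0.077 (SE; edgeR adjusted p = 2.13e-20). ARRDC4 (chromosome 15, 97960698 to 97973838, plus strand), its closest relative in this response, had 18.2, 19.3 and 15.7 CPM at the high dose and 5.31, 6.67 and 5.93 CPM at the low dose. The lowest high-dose library was still more than any low-dose library, and the difference was 2.96-fold (log2 fold change 1.56 ± 0.099, edgeR adjusted p = 2.53e-10).

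Neither arrestin passed the test between the lower doses. Along the series of vehicle, low, medium and high dose, TXNIP averaged 8.77, 10.4, 13.2 and 134 CPM and ARRDC4 6.04, 5.97, 6.59 and 17.8 CPM. The difference between medium and low dose was 0.34 ± 0.096 (log2) for TXNIP and 0.13 ± 0.11 for ARRDC4, and neither passed the test (edgeR adjusted p = 0.432 and 0.876). The other 5 tested members of this list were not called: ARRDC2 and ARRDC3, further alpha-arrestins, had log2 fold changes of 0.13 and 0.02, KLF10, a transcription factor, 0.10, MLXIP -0.12 and MLX 0.01.

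**Figure D2:**
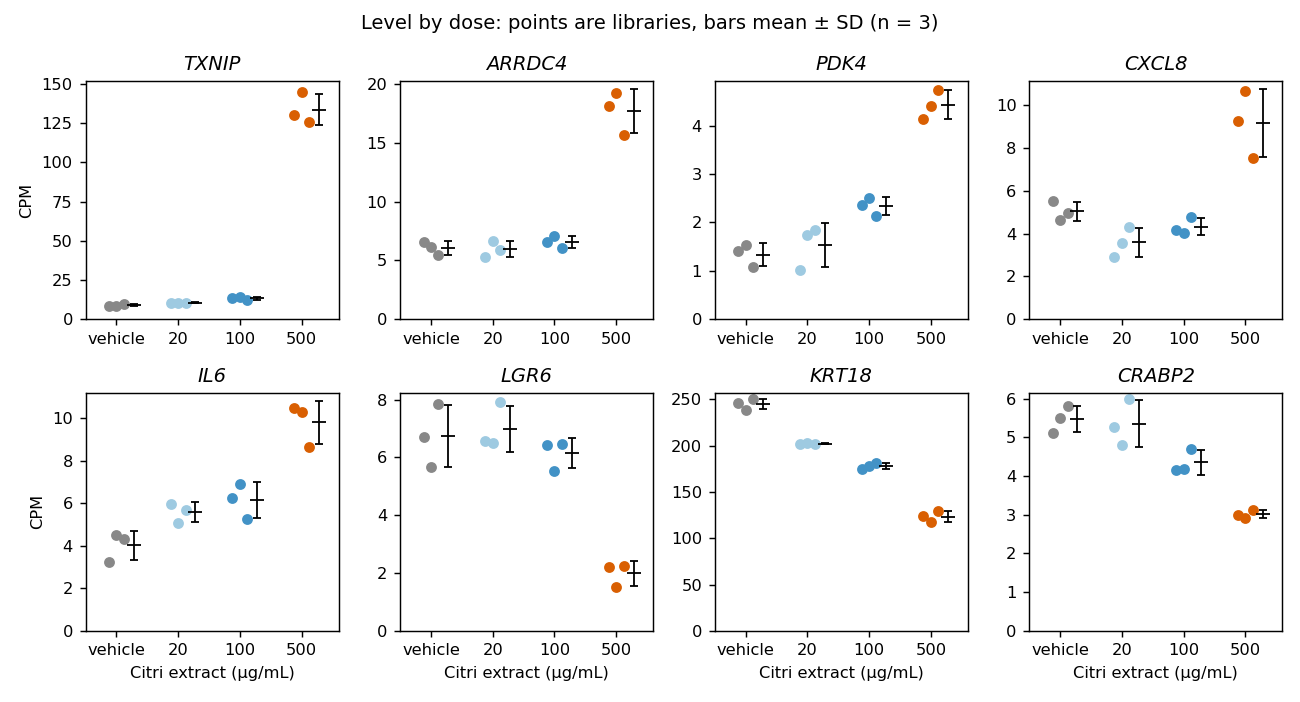
Level in CPM (linear axis from 0) of 8 genes in the vehicle libraries and at 20, 100 and 500 µg/mL of Citri extract, with a point for each library and a bar for the mean ± SD (n = 3). TXNIP and ARRDC4 average 13.2 and 6.59 CPM at 100 µg/mL and 134 and 17.8 CPM at 500 µg/mL, LGR6 drops to 1.99 CPM there, and KRT18 is lower at each dose than at the one before.

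Genes of sugar entry and glycolysis moved both ways. Of 25 tested, 4 rose and 4 fell, and their median log2 fold change was -0.0105. SLC2A1, the glucose transporter GLUT1 on which TXNIP acts, had 141, 139 and 151 CPM at the high dose and 182, 171 and 175 CPM at the low dose, without overlap, and fell by 0.30 ± 0.038 log2 units (edgeR adjusted p = 1.05e-05). Its relative SLC2A3 (GLUT3) rose by 0.19, and the brain-type isoenzymes ALDOC, an aldolase (0.46 ± 0.088), and ENO2, an enolase (0.28 ± 0.045), rose too. The widely expressed isoenzymes gave log2 fold changes of -0.01 (ALDOA) and -0.03 (ENO1), neither of them called, and TPI1, PGAM1 and PKM fell by 0.12, 0.18 and 0.11. Genes that bring galactose into glycolysis and are named here were not called, with log2 fold changes of 0.04 for GALK1, 0.15 for GALT and -0.05 for PGM1. The count of 8 called genes was 5 without replicate 2 of either dose. Of 12 hypoxia genes 2 rose, namely NDRG1, a stress-induced growth regulator (0.46 ± 0.042), and the angiogenic factor VEGFA (0.13 ± 0.042), whose call was lost with the 6 or 9 Citri libraries alone and without high replicate 1 or 3 or low replicate 2 or 3 (edgeR adjusted p = 0.051 to 0.239).

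PDK4, the kinase that shuts off pyruvate dehydrogenase and so spares glucose, had 4.15, 4.42 and 4.74 CPM at the high dose and 1.01, 1.74 and 1.84 CPM at the low dose. All high-dose libraries were above all low-dose ones, and PDK4 rose 2.85-fold (log2 fold change 1.51 ± 0.18, edgeR adjusted p = 3.19e-06). PDK4 is also a target of the PPARs, nuclear receptors for fatty acids, and of the 7 PPAR targets tested 4 rose and none fell, beside 6.34% higher among all genes. Another of them, ANGPTL4, a secreted inhibitor of lipoprotein lipase, had 23.6, 20.3 and 24.7 CPM at the high dose against 11.5, 14.1 and 13.4 CPM at the low dose, a log2 fold change of 0.81 ± 0.092 (edgeR adjusted p = 1.83e-06). The lipid droplet coat protein PLIN2 (0.28 ± 0.048) and the fatty acid oxidation enzyme ACADVL (0.13) completed the 4, while CPT1A, the gate of fatty acid entry into mitochondria, gave 0.07 and did not pass. ANGPTL4 was lower at the low dose than in vehicle libraries (log2 fold change -0.41 ± 0.10, edgeR adjusted p = 0.00709), and the vehicle libraries lay at 17.8, 15.3 and 19.4 CPM.

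Genes of lipid synthesis were lower at the high dose. Fatty acid synthesis genes fell in 7 of 11 tested and cholesterol synthesis genes in 9 of 23, none rose in either list, and the medians were -0.12 and -0.114 (log2) beside -0.000708 over all genes. SCD, which desaturates stearate, had 192, 196 and 190 CPM at the high dose and 259, 266 and 266 CPM at the low dose. These values left a clear gap and gave a log2 fold change of -0.45 ± 0.039 (edgeR adjusted p = 3.01e-08). SREBF1, which encodes the transcription factor that drives fatty acid synthesis, averaged 44.8 ± 3.0 CPM at the high dose and 60.7 ± 2.23 CPM at the low dose (SD, n = 3 each). It fell by 0.44 ± 0.075 on the log2 scale, and FADS2, a desaturase for polyunsaturated fatty acids, by 0.29 ± 0.054. The fatty acid synthase FASN fell by 0.15 and ATP citrate lyase, ACLY, by 0.12.

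In the cholesterol pathway LSS, the lanosterol synthase, fell by 0.35 log2 units (edgeR adjusted p = 3.7e-06). INSIG1, which holds the SREBP activator in the endoplasmic reticulum, fell by 0.31 ± 0.047, and HMGCS1, an early enzyme of the pathway, by 0.25 ± 0.043. IDI1 and FDPS, which act between HMGCS1 and LSS, gave -0.01 and 0.05 and were not called. The HMGCS1 level was 59.8 CPM in vehicle libraries, 44.9 at the low dose, 43.6 at the medium and 37.9 CPM at the high dose, whereas SCD averaged 261, 264, 236 and 192 CPM over the same groups. ABCA1, which exports cholesterol and is a target of the LXR receptors, fell by 0.22 ± 0.045, the only one called in a list of 7 that holds LXR targets and the receptor genes NR1H2 and NR1H3.

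Inflammatory genes rose. Of 16 tested NF-kB targets, 10 were called higher and 1 lower, with a median log2 fold change of 0.303. CXCL8, the neutrophil chemokine interleukin-8, had 9.28, 10.7 and 7.56 CPM at the high dose and 2.92, 3.57 and 4.3 CPM at the low dose. The ranges were well apart, and CXCL8 rose by 1.32 ± 0.14 log2 units (edgeR adjusted p = 9.49e-07). The related chemokines CXCL3 (1.24 ± 0.40, edgeR adjusted p = 0.0393) and CXCL2 (1.05 ± 0.32, edgeR adjusted p = 0.0312) were called higher too. Both are low, at 0.642 and 0.733 CPM at the high dose and 0.272 and 0.348 CPM at the low dose, so the size of their rises is uncertain. CCL2, which attracts monocytes, fell by 0.26. IL6, a cytokine that acts on glia and on the liver, had 10.5, 10.3 and 8.65 CPM at the high dose against 5.98, 5.07 and 5.71 CPM at the low dose. No library overlapped, and the difference was 1.75-fold (log2 fold change 0.81 ± 0.12, edgeR adjusted p = 4.69e-05). SOD2, the mitochondrial superoxide dismutase, rose by 0.41 ± 0.054 and the adhesion molecule ICAM1 by 0.40 ± 0.051. Feedback inhibitors moved less, with 0.20 for NFKBIA, which was called, and 0.10 for TNFAIP3, which was not. The number called in this list was 5 without replicate 2 of the high dose and 6 without replicate 1 of either dose. CXCL8 was not uniformly above the vehicle: vehicle libraries had 5.53, 4.62 and 4.99 CPM, higher than each low-dose library, though the low dose did not differ from the vehicle at the threshold (edgeR adjusted p = 0.0511). Of 17 interferon-induced genes 2 rose, among them the antiviral membrane protein IFITM1 (0.35 ± 0.082), and IFI44L fell by 0.25 ± 0.048.

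The 12 largest rises that met the naming rule also included SERPINB3, SERPINB4, SPINK13 and ACTC1. SERPINB3 and SERPINB4, neighbouring genes for inhibitors of cysteine and serine proteases, rose by 1.42 ± 0.11 and 1.24 ± 0.14 on the log2 scale. Their sequences are nearly identical, so reads may be divided between them wrongly. SERPINB3 had 16.6, 21 and 18.2 CPM at the high dose and 7.08, 6.03 and 7.56 CPM at the low dose, and SERPINB4 6.64, 8.51 and 7.22 CPM against 3.11, 2.47 and 3.72 CPM. SPINK13, a Kazal-type inhibitor of serine proteases, rose by 1.21 ± 0.19, and ACTC1, the cardiac form of alpha-actin, by 1.17 ± 0.23 (edgeR adjusted p = 8.92e-05 and 0.00137). Both are low, at 4.04 and 3.72 CPM at the high dose and 1.77 and 1.63 CPM at the low dose. The long non-coding RNA LINC02913 averaged 2.02 CPM at the high dose and 0.907 CPM at the low dose.

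The largest fall among the genes named was that of LGR6 (chromosome 1, 202193901 to 202319781, plus strand), a receptor for R-spondins, secreted proteins that strengthen Wnt signals. LGR6 had 2.21, 1.5 and 2.25 CPM at the high dose and 6.56, 6.49 and 7.92 CPM at the low dose. The high-dose values were less than any other Citri or vehicle value, and the difference was 3.47-fold (log2 fold change -1.80 ± 0.16, edgeR adjusted p = 9.16e-08). From vehicle to high dose the means were 6.74, 6.99, 6.14 and 1.99 CPM. Of the 8 tested Wnt feedback genes, LGR6 among them, 5 fell and none rose, with a median of -0.333 and a share of 7.41% lower among all genes. NKD1, which binds Dishevelled and restrains Wnt signals, fell by 1.24 ± 0.23, AXIN2, a scaffold of the complex that degrades beta-catenin, by 0.54 ± 0.091, TCF7, a transcription factor of the pathway, by 0.47 ± 0.058, and the secreted inhibitor DKK1 by 0.20. LGR5, ZNRF3 and RNF43 gave 0.12, -0.15 and 0.48 and were not called.

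Retinoid genes were lower as well, with 5 of 6 tested members called and a median of -0.352. CRABP2, which carries retinoic acid to its receptors, had 3.0, 2.91 and 3.13 CPM at the high dose and 5.27, 4.8 and 6.0 CPM at the low dose. It fell to lower levels in each high-dose library, by 0.83 ± 0.11 log2 units (edgeR adjusted p = 2.08e-05). DHRS3, a reductase that turns retinal back to retinol, fell by 0.50 ± 0.066 and CYP26B1, which degrades retinoic acid, by 0.37 ± 0.055. STRA6, the membrane receptor for retinol-binding protein, fell by 0.33 and the receptor RARB by 0.31.

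Other large falls were those of FAM13B, PADI2 and TNFSF15. FAM13B (chromosome 5, 137937960 to 138051961, minus strand), had 31.3, 32.3 and 33.1 CPM at the high dose against 69.0, 71.3 and 68.8 CPM at the low dose. With so little scatter the 2.16-fold lower level had the smallest p-value after TXNIP among the genes named (log2 fold change -1.11 ± 0.048, edgeR adjusted p = 1.15e-13). PADI2, which converts arginine to citrulline in proteins, had 6.52, 6.02 and 6.78 CPM at the high dose and 13.7, 14.0 and 15.1 CPM at the low dose, 2.21-fold lower. TNFSF15, a cytokine of the tumour necrosis factor family, averaged 4.95 ± 0.115 CPM at the high dose and 10.6 ± 1.39 CPM at the low dose (SD, n = 3 each). EDN1, the vasoconstrictor endothelin-1, had a mean of 1.10 CPM at the high dose and 2.33 CPM at the low dose, but vehicle libraries held 1.22, 1.06 and 1.58 CPM, so that the high dose lay at the vehicle level. PTPRB, a receptor tyrosine phosphatase, fell by 0.98 ± 0.12, and the calcium sensor VSNL1 by 1.12 ± 0.24.

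The keratin 18 level was lower at each dose than at the one before. KRT18, an intermediate filament protein of simple epithelia that many tumour lines also make, had 124, 117 and 129 CPM at the high dose against 202, 203 and 202 CPM at the low dose, a log2 fold change of -0.71 ± 0.040 (edgeR adjusted p = 2.75e-11). Its medium-dose libraries held 175, 178 and 181 CPM and its vehicle libraries 246, 239 and 250 CPM, so that no 2 of the 4 groups overlapped, but the difference between medium and low dose (-0.19 ± 0.039) did not pass (edgeR adjusted p = 0.278). Its partner KRT8 fell by 0.24 ± 0.053. KRT8 and KRT18 overlap in the annotation, and the sources used here do not say whether counting used strand. The epithelial markers EPCAM and CDH1 were at trace level, EPCAM with 7 and 1 and CDH1 with 1 and 1 counts over 3 libraries at the high and the low dose. The list also holds KRT19 and CLDN4. Of its 6 members 4 were tested, with a median log2 fold change of -0.119, and KRT18 and KRT8 were the only 2 called.

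Matrix and contractile genes moved down together. Of 16 genes of the extracellular matrix 9 fell and none rose (median -0.134), and of 16 YAP and contractile genes 8 fell and none rose (median -0.182). COL1A2, a chain of type I collagen, had 1810, 1910 and 1870 CPM at the high dose and 2250, 2220 and 2330 CPM at the low dose, a fall of 0.28 ± 0.040 log2 units (edgeR adjusted p = 2.96e-05). The chains COL3A1 (-0.29), COL5A1 (-0.22) and COL1A1 (-0.19), the matrix proteins POSTN (-0.31 ± 0.039) and TNC (-0.19) and the TGF-beta activator THBS1 (-0.27 ± 0.042) fell by like amounts. Fibronectin, FN1, gave -0.03 and the basement membrane collagens COL4A1 and COL4A2 -0.06 and -0.05, with no call.

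ACTA2, smooth muscle actin, had 68.7, 57.2 and 68.3 CPM at the high dose and 90.3, 90.3 and 90.0 CPM at the low dose, and fell by 0.47 ± 0.059 log2 units (edgeR adjusted p = 6.61e-06). Its gene overlaps FAS, which was not called itself at -0.05. The actin-binding proteins TAGLN (-0.30 ± 0.047) and TPM1 (-0.27 ± 0.033) fell, as did CCN2 (-0.23) and ANKRD1 (-0.29), targets of the coactivator YAP, while CCN1, a further YAP target, gave 0.09 and was not called. The count of 8 fell to 4 without replicate 2 of the high dose and to 5 without replicate 1 or replicate 3 of the low dose.

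Chaperone genes of the endoplasmic reticulum (ER) were lower at the high dose. Of 16 tested, 7 fell and none rose, with a median of -0.0942. HSPA5, the chaperone BiP, had 2940, 3180 and 2960 CPM at the high dose and 3480, 3530 and 3500 CPM at the low dose, a log2 fold change of -0.21 ± 0.032 (edgeR adjusted p = 7.3e-05). HYOU1 (-0.16 ± 0.032) and CANX (-0.14 ± 0.026), a chaperone and a lectin that help proteins fold, changed by even less, and their calls rest on tight replicates. In the ATF4 list 3 of 23 genes rose and 2 fell. The cell death regulator DDIT3 (0.37 ± 0.069), the mTORC1 inhibitor DDIT4 (0.41 ± 0.049) and the asparagine synthetase ASNS (0.17) rose, and ATF4 itself (-0.22 ± 0.034) and the secreted glycoprotein STC2 (-0.25 ± 0.031) fell. DDIT3 had 26.6, 31.6 and 29.9 CPM at the high dose against 22.6, 23.8 and 21.9 CPM at the low dose. Heat shock genes, the mitochondrial chaperonin genes HSPD1 and HSPE1 included, fell in 3 of 11 cases, the chaperones DNAJB1 (-0.28 ± 0.045), HSPA8 (-0.23 ± 0.045) and HSPH1 (-0.18 ± 0.040), and HSP90AA1 rose by 0.14.

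Of 22 NRF2 targets, antioxidant and detoxifying genes, 6 rose and none fell, with a median of 0.0591. FTL, the ferritin light chain, rose by 0.36 ± 0.057, the quinone reductase NQO1 by 0.25 ± 0.040 and the aldo-keto reductase AKR1C1 by 0.32 ± 0.072 (edgeR adjusted p = 0.000141, 0.000152 and 0.00379). FTL has processed copies and AKR1C1 near-identical relatives in the genome, so their counts are less certain. HMOX1, which degrades haem and is among the most inducible NRF2 targets, had 58.2, 59.6 and 63.6 CPM at the high dose and 56.7, 54.7 and 61.7 CPM at the low dose. These ranges overlapped, and the log2 fold change of 0.07 ± 0.059 did not pass (edgeR adjusted p = 0.517).

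Among 7 genes of the response to the aryl hydrocarbon receptor (AhR), the sensor of plant and ring compounds, 3 rose and none fell; the list includes the receptor gene AHR (0.04) and its partner ARNT (0.09), neither called. CYP1B1, a monooxygenase, had 192, 190 and 193 CPM at the high dose and 159, 156 and 159 CPM at the low dose, a log2 fold change of 0.28 ± 0.034 (edgeR adjusted p = 4.52e-06). CYP1A1, its more inducible relative, had 1.54, 1.22 and 1.09 CPM at the high dose against 0.814, 1.14 and 1.05 CPM at the low dose and did not pass (0.35 ± 0.31, edgeR adjusted p = 0.519). TIPARP (0.19) and ALDH3A1 (0.98 ± 0.28) were the other called members. Without replicate 3 of the high dose or replicate 2 of the low dose 1 of the 3 calls was left. ALDH3A1 is low, at 1.08 CPM at the high dose and 0.535 CPM at the low dose, so the size of its rise is uncertain. Its call was also lost without low replicate 1 (edgeR adjusted p = 0.0646).

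Mitotic genes were slightly higher. Of 20 tested, 9 rose and none fell, with a median of 0.157 (log2). TOP2A, the topoisomerase that untangles chromosomes, had 549, 567 and 551 CPM at the high dose and 479, 474 and 472 CPM at the low dose, and rose by 0.23 ± 0.030 (edgeR adjusted p = 1.64e-05). The mitotic kinesin KIF20A rose by 0.29 ± 0.042, securin, PTTG1, by 0.26 ± 0.043, the kinases AURKB and BUB1 by 0.23 each and the cyclin CCNB2 by 0.20. The proliferation marker MKI67 had 348, 296 and 306 CPM at the high dose against 306, 313 and 267 CPM at the low dose, with overlap and no call (0.10 ± 0.070, edgeR adjusted p = 0.381). Replication genes showed no such rise: of 20, none rose and UHRF1, which maintains DNA methylation (-0.21 ± 0.040), and MCM2 of the replicative helicase (-0.14) fell. The call of MCM2 was lost with DESeq2 (adjusted p = 0.0858), with the 6 or 9 Citri libraries alone, under the median-of-ratios scaling, without the filter and on leaving out any single high or low library other than low replicate 1 (edgeR adjusted p = 0.0508 to 0.214), which left 1 call. Of 16 p53 targets 2 rose, among them the death receptor TNFRSF10B (0.27 ± 0.037). The other call was lost with DESeq2, without the filter on low counts and on leaving out any single high or low library other than low replicate 1, which left 1. In the same list the cell cycle inhibitor CDKN1A, with 26.6, 27.5 and 32.4 CPM at the high dose and 25.1, 26.4 and 26.0 CPM at the low dose, did not pass (0.17 ± 0.069, edgeR adjusted p = 0.119).

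Feedback genes of MAPK signalling and clock genes added smaller changes. DUSP6, the phosphatase that inactivates ERK, rose by 0.48 ± 0.060 and the immediate-early gene IER3 by 0.94 ± 0.22, 2 of the 4 that rose among 21 MAPK genes. FOS (0.28), EGR1 (0.26) and JUN (-0.05) were not called, and the 4 calls fell to 2 without replicate 2 or replicate 3 of the low dose. Of 17 clock genes 5 rose and 2 fell. The period gene PER1 (0.47 ± 0.057), the repressors BHLHE40 (0.31 ± 0.040) and NR1D1 (0.34 ± 0.074) rose, and the activators ARNTL (-0.37) and CLOCK (-0.14) fell. PER1 had 40.4, 40.1 and 39.3 CPM at the high dose against 30.3, 29.2 and 27.0 CPM at the low dose. PER1 is also a target of the glucocorticoid receptor, as is KLF9, a transcription factor that rose by 0.25 ± 0.043, whereas the receptor's targets FKBP5 (0.02) and TSC22D3 (-0.03) were not called.

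Genes that bind or export metal ions fell in 3 of 5 tested. MT1E, a metallothionein, had 8.18, 7.99 and 10.2 CPM at the high dose and 14.9, 17.8 and 19.2 CPM at the low dose, with a log2 fold change of -0.97 ± 0.12 (edgeR adjusted p = 4.19e-06). The zinc exporter SLC30A1, which zinc induces, fell by 0.45 ± 0.047, with vehicle libraries at a mean of 100.0 CPM and means of 74.7, 73.6 and 54.5 CPM at the low, medium and high dose. MT2A, the most widely expressed metallothionein, gave -0.03 and was not called. Metallothionein sequences are alike, so the split between MT1E, MT1X (-0.37) and their relatives is uncertain. The MT1X libraries of the 2 doses overlapped. Its call was lost without high replicate 1 or 2 or low replicate 2 or 3 (edgeR adjusted p = 0.0911 to 0.163). Lysosomal genes showed 1 call each way among 20, and of the 3 tested Notch targets 0 were called by edgeR or DESeq2 and 0 had an unadjusted p under 0.05.

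The 2 ribosomal RNAs of the mitochondrion were lower at the high dose, while mitochondrial messenger RNAs showed no call. MT-RNR2 had 9170, 8420 and 8820 CPM at the high dose and 11400, 11400 and 11100 CPM at the low dose, a log2 fold change of -0.36 ± 0.054 (edgeR adjusted p = 7.52e-05), and MT-RNR1 fell by 0.37 ± 0.092, 1 of the 2 calls being lost without replicate 3 of the low dose. Vehicle libraries lay at 8480, 8220 and 8910 CPM for MT-RNR2, at the level of the high dose. None of the 13 mitochondrial messenger RNAs was called by edgeR or DESeq2 or had an unadjusted p under 0.05, with a median log2 fold change of 0.00189, though edgeR called 2 without the filter on low counts. The share of all counts on mitochondrial genes was 6.12 to 6.34% at the high dose and 5.92 to 6.79% at the low dose.

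Antisense RNAs and lincRNAs held a smaller share of both higher and lower calls than protein-coding genes did, with more higher than lower calls. Of 973 antisense RNAs tested, 48 rose and 9 fell (4.93% and 0.925%), and of 704 lincRNAs 40 rose and 21 fell (5.68% and 2.98%), whereas 919 of 13446 protein-coding genes rose and 1173 fell (6.83% and 8.72%). Median log2 fold changes were 0.0837 for antisense RNAs, 0.0592 for lincRNAs and -0.00573 for protein-coding genes. Processed pseudogenes went the other way, with 2 higher and 7 lower of 367 and a median of -0.0409. Antisense RNAs and lincRNAs together took 0.946 to 1.03% of counts at the high dose and 0.84 to 0.865% at the low dose, with 0.779 to 0.832% in vehicle libraries. Reads of an antisense gene and of its partner cannot be told apart unless strand was used in counting, which the sources used here do not give. Across 16516 genes with a gene model the fold change was only weakly related to GC content (Spearman correlation -0.022) and to transcript length (-0.0721), given as descriptions over genes, which are not independent.

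**Figure D3:**
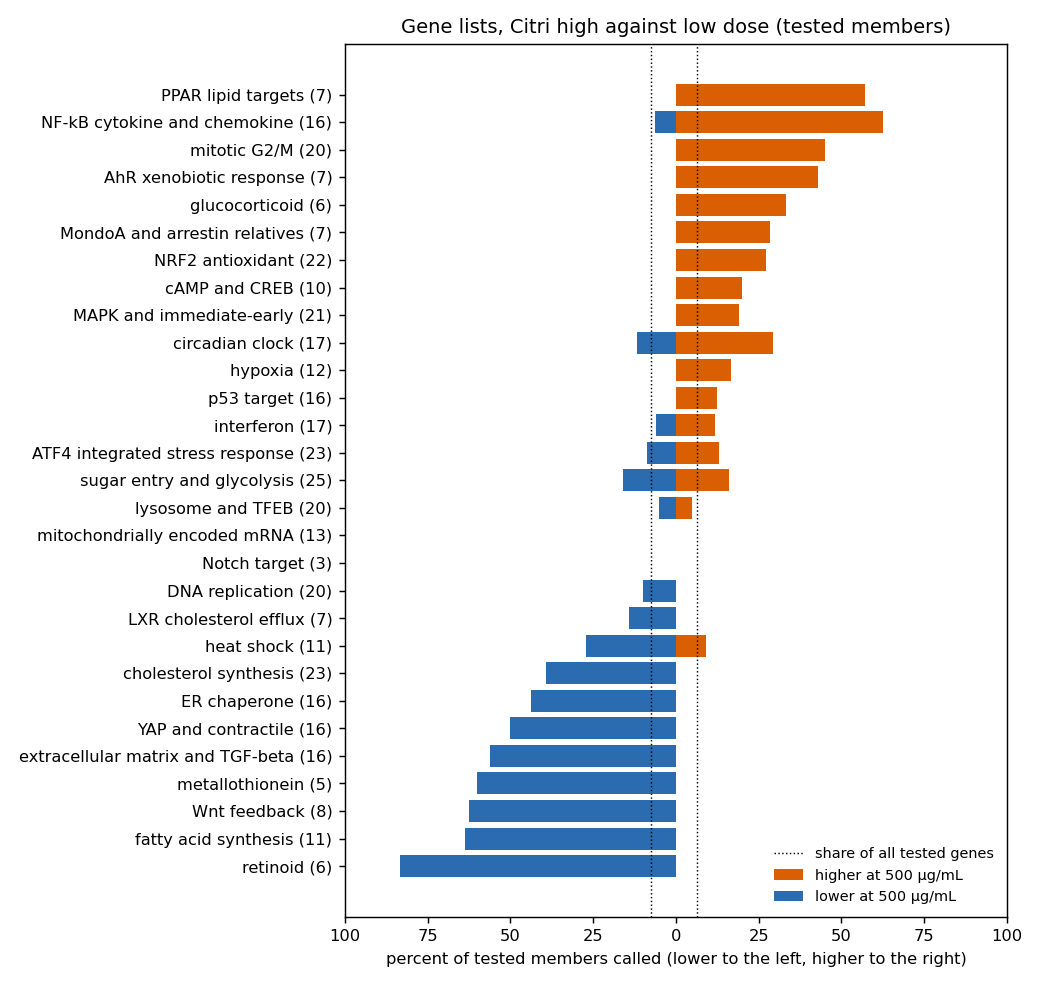
Percent of the tested members of each gene group (number tested in brackets) that were called higher (bars to the right) or lower (bars to the left) at the high dose of Citri than at the low dose, with dotted lines at the shares of all tested genes, 6.34% and 7.41%. NF-kB, PPAR and mitotic groups extend to the right, and the retinoid, fatty acid, Wnt and matrix groups to the left.

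The medium dose stood close to the low dose. Between medium and low dose 2 of 16626 genes passed (0.012%), against 1525 (9.17%) between high and medium dose, and 1147 genes had an unadjusted p under 0.05 between medium and low dose. DESeq2 called 22. The 2 genes, singled out after their values were seen, were IL11, a cytokine of the interleukin-6 family, and HOPX, a homeodomain protein without DNA binding. IL11 averaged 90.0, 116 and 140 CPM at the low, medium and high dose and HOPX 91.6, 75.9 and 71.8 CPM. CYP1B1 averaged 158, 179 and 192 CPM over the same 3 doses, with no overlap between the libraries of any of them, but its difference between medium and low dose (0.17 ± 0.034) did not pass (edgeR adjusted p = 0.157).

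Against the vehicle the high dose differed in 5434 genes (32.7%) and the low dose in 2664 (16.0%). Both comparisons use the same 3 vehicle libraries, which carry no set number, so set and treatment cannot be told apart in them. For TXNIP the log2 fold change was 3.93 ± 0.083 at the high dose against vehicle and 0.25 ± 0.11 at the low dose against vehicle, for LGR6 it was -1.72 ± 0.17 and 0.07 ± 0.14, and for KRT18 -0.99 ± 0.040 and -0.27 ± 0.039. At the low dose TXNIP and LGR6 did not pass, while KRT18 did (edgeR adjusted p = 0.117, 0.778 and 0.000109). MT-RNR2 and EDN1 gave another pattern, with log2 fold changes of 0.04 and -0.22 at the high dose against vehicle, which did not pass, and of 0.40 and 0.86 at the low dose against vehicle, which did (edgeR adjusted p = 0.573, 0.572, 5.36e-05 and 0.015).

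Cimicifugae Rhizoma was given at the same doses in the same set, and its high dose differed from its low dose in 1747 genes (10.5%). In both extracts 838 genes were called in the same direction, which is 36.7% of the Citri calls and 48.0% of the Cimicifugae calls. A further 20 were called in opposite directions. Across all 16626 genes the dose effects of the 2 extracts correlated at 0.392 (Spearman) and 0.187 (Pearson). Genes are not independent, so these correlations are descriptions. A direct test of whether the dose effect of Citri differed from that of Cimicifugae passed for 121 genes (0.728%), of which 39 were called higher and 46 lower between the Citri doses. LGR6 (Citri -1.80, Cimicifugae -1.57), KRT18 (-0.71 and -0.71), PADI2 (-1.15 and -1.0) and CRABP2 (-0.83 and -0.80) fell in both, and the differences of the effects did not pass, with -0.22 ± 0.24 for LGR6, -0.15 ± 0.11 for PADI2 and -0.03 ± 0.16 for CRABP2. Several lists lower with Citri were lower with Cimicifugae too, where 5.68% of all genes were called lower. There 12 of 16 YAP and contractile genes fell (median -0.263) and 7 of 16 matrix genes (median -0.0769). Fatty acid synthesis genes fell in 6 of 11 and 1 rose. Cholesterol synthesis genes fell in 6 of 23 and Wnt feedback genes in 4 of 8. Among these lists the test of the difference passed for CCN1 alone (0.48 ± 0.086). Some lists higher with Citri also held rises with Cimicifugae, where 4.83% of all genes were called higher. There 5 of 7 PPAR targets, 8 of 21 MAPK genes and 4 of 16 NF-kB targets rose, but 0 of 20 mitotic genes. The test of the difference passed for 1 PPAR target, 0 MAPK genes and 1 NF-kB target each way.

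TXNIP responded more to Citri than to Cimicifugae. In Cimicifugae libraries it had 33.5, 30.4 and 33.9 CPM at the high dose and 14.9, 16.8 and 12.9 CPM at the low dose, a rise of 1.13 ± 0.080 on the log2 scale, and the effect of Citri was larger by 2.55 ± 0.12 (edgeR adjusted p = 3.43e-13). ARRDC4 rose by 0.42 ± 0.11 with Cimicifugae, and the effect of Citri was larger by 1.14 ± 0.15 (edgeR adjusted p = 0.000146). HMOX1 showed the reverse. It had 489, 476 and 515 CPM at the high dose of Cimicifugae and 127, 127 and 142 CPM at its low dose, and the effect of Citri minus that of Cimicifugae was -1.83 ± 0.079 (edgeR adjusted p = 2.51e-13).

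ER chaperones moved in opposite directions in the extracts. With Cimicifugae 9 of the 16 rose and none fell (4.83% of all genes were higher and 5.68% lower), where Citri had 7 lower and none higher, and 10 of the 16 passed the test of the difference, all lower for Citri (of all genes 0.523% were lower and 0.204% higher). HSPA5 had 4350, 4440 and 4340 CPM at the high dose of Cimicifugae and 3810, 3680 and 3760 CPM at its low dose, and the difference of the effects was -0.43 ± 0.045 (edgeR adjusted p = 5.81e-06). DHRS3 and CYP26B1, lower with Citri, were higher with Cimicifugae (0.21 ± 0.063 and 0.26 ± 0.054), and the effects differed by -0.71 and -0.63. KIF20A gave -0.03 with Cimicifugae, a difference of 0.31 ± 0.060, and the mitotic list held 2 lower calls and no higher call in that extract, while KIF20A was the 1 of 20 members that passed the test of the difference. NRF2 targets rose in 18 of 22 and genes of the AhR list in 6 of 7 with Cimicifugae, and 4 and 3 of them passed the test of the difference.

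**Figure D4:**
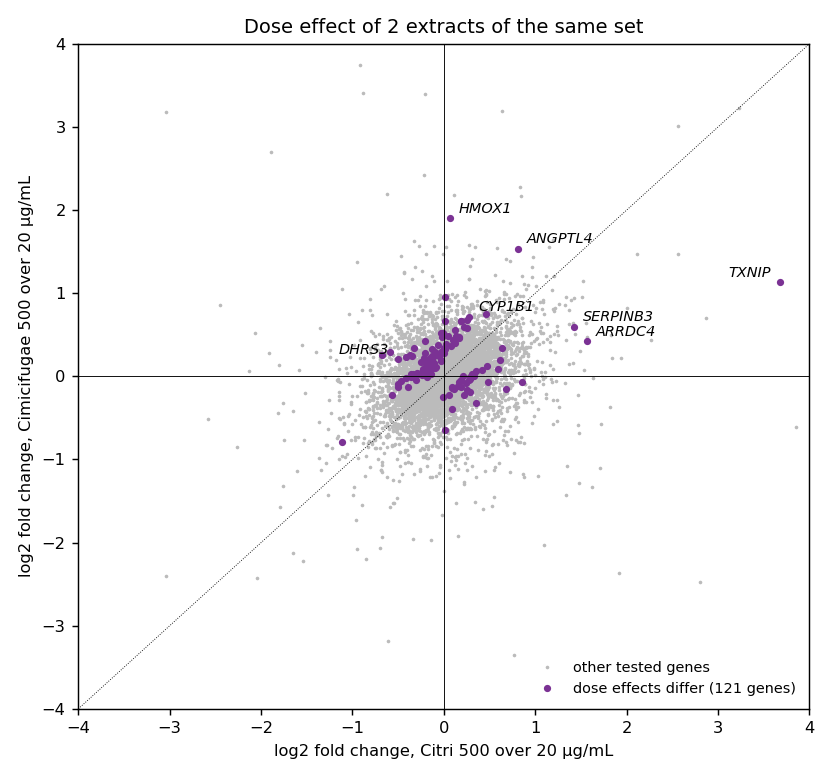
Log2 fold change between 500 and 20 µg/mL for Citri (x axis) and for Cimicifugae (y axis), with 1 point per gene, the 121 genes whose dose effects differ coloured, the diagonal dotted and 24 genes beyond the axes not drawn. TXNIP lies to the right of the diagonal at 3.68 and 1.13, and HMOX1 above it at 0.07 and 1.90.

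Markers of other cell types were measured beside these results. The microglial genes AIF1, TYROBP, C1QA and C1QB and the myelin gene MOG had 0 counts at both doses. The summed microglia and leukocyte list lay between 211 and 215 CPM at the high dose and between 182 and 200 CPM at the low dose, and of its 3 tested members the phosphatase PTPRC fell (-0.48 ± 0.094). Oligodendrocyte markers summed to 7.71 to 8.24 CPM at the high dose and 7.12 to 9.05 CPM at the low dose, with no edgeR or DESeq2 call among 2 tested and 0 with an unadjusted p under 0.05. The epithelial list, which KRT18 fills almost alone, summed to 140 to 151 CPM at the high dose and 227 CPM in each low-dose library. Summed endothelial markers lay between 26.7 and 29.4 CPM at the high dose and between 28.2 and 30.1 CPM at the low dose, and fibroblast and pericyte markers between 333 and 335 CPM at the high dose and between 366 and 376 CPM at the low dose, where PDGFRB (-0.20 ± 0.044) and CSPG4 (-0.15 ± 0.029) were the 2 called of 6. Neuron markers summed to 170 to 173 CPM at the high dose and 178 to 189 CPM at the low dose, with MAP2, a microtubule protein (-0.83 ± 0.097), and SYT1, a synaptic vesicle protein (-0.48 ± 0.058), called lower. Of the astrocyte markers the glutamate transporter SLC1A3 (-0.28 ± 0.059) and SOX9 (-0.19 ± 0.055) fell, though the SOX9 call was lost without high replicate 2 (-0.13, edgeR adjusted p = 0.146), low replicate 1 or low replicate 2 (0.0665 and 0.0528), and of the mesenchymal glioma markers VIM (-0.19), NES (-0.48 ± 0.074), LGALS3 (-0.24) and ANXA1 (-0.22 ± 0.037) fell and the secreted glycoprotein CHI3L1 (0.24 ± 0.051) rose. In bulk RNA fewer cells of a kind and less RNA per cell cannot be told apart, and the part of either in these results was not tested.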

How the data were processed

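The authors deposited 1 table of expected counts, with a row for each gene. Per the submitters' processing notes, the tools were RSEM 1.3.3, STAR 2.7.3a, Trim Galore 0.6.5 and FastQC 0.11.9, and the build was hg38. What each tool did, which annotation was used and whether strand was used in counting are not stated there. Per the labels, a directional kit was used on RNA of integrity number over 7, and reads were 100 bp paired ends. The table held 60675 genes, 23499 of them without a count, and 9.18% of values were not whole. They were rounded, which hardly changes genes with many counts. Expected counts share reads of near-identical genes by estimate, so such genes are less certain. Of the genes 57055, with 99.97% of all counts, are in GENCODE v29.

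The 21 libraries of Citri, Cimicifugae and the vehicle, with totals of 15996157 to 30653513 counts, entered 1 fit with edgeR 4.0.16 in R 4.3.3 (filterByExpr at a minimum count of 10, TMM, glmQLFit, glmQLFTest, no block), with Benjamini-Hochberg adjustment over all 16626 genes of each comparison. Other sets were left out because earlier results of these data named 2 libraries in them that stand apart in their groups. SE is the size of the log2 fold change divided by the square root of F. The script was tested on simulated data.

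Members and lists were chosen with earlier results of these data known. The naming rule took the 12 largest rises and falls among called genes that had a symbol, averaged at least 1 CPM and did not overlap between doses (972 higher and 1157 lower genes met this), up to 3 called members of each of 38 lists, and 10 fixed genes, 110 in all. The text leaves out 14 of them, for length, because a copy or overlapping gene makes them uncertain or because they are not reported here, and names further list members beside their group's count. Alternatives were other fits (DESeq2 1.42.0, scaling, filter, block, other sets of libraries) and leaving out each library.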

Additional observations from a re-analysis of the deposited data

Results flagged for a closer look

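Of the 110 genes that the naming rule picked, 23 had a dose effect (high over low) that differed between Citri and Cimicifugae by a direct test in the edgeR model. Among all 16626 genes that test passed for 121 (0.728%). The rule picked mostly by the Citri dose effect, which is 1 part of the difference tested, so the 2 shares cannot be set against each other. Each gene is listed with the difference of the 2 effects on the log2 scale, Citri minus Cimicifugae. The low-dose libraries of each extract are its own, and all 12 libraries belong to the same set.

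The effect of Citri was the higher one for the arrestins TXNIP (2.55, edgeR adjusted p = 3.43e-13) and ARRDC4 (1.14, edgeR adjusted p = 0.000146), the protease inhibitor SERPINB3 (0.821), the clock gene PER1 (0.35), the superoxide dismutase SOD2 (0.331) and the mitotic kinesin KIF20A (0.313). TXNIP rose in both extracts, by 3.68 with Citri and 1.13 with Cimicifugae, whereas PER1 (0.47 and 0.12), SOD2 (0.41 and 0.08) and KIF20A (0.29 and -0.03) were called with Citri and not with Cimicifugae.

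The effect of Citri was the lower one for 17 genes. HMOX1 had the widest gap (-1.83, edgeR adjusted p = 2.51e-13), with dose effects of 0.07 for Citri and 1.90 for Cimicifugae. Genes called in opposite directions were the retinoid genes DHRS3 (-0.712) and CYP26B1 (-0.633), the ER chaperones HSPA5 (-0.434) and HYOU1 (-0.334) and the secreted glycoprotein STC2 (-0.421), each lower with Citri and higher with Cimicifugae. ATF4 (-0.272), the lectin chaperone CANX (-0.168) and the glucose transporter SLC2A1 (-0.34) fell with Citri and were not called with Cimicifugae. Genes that rose in both but less with Citri were ANGPTL4 (-0.721), TIPARP (-0.47), CYP1B1 (-0.443), NQO1 (-0.427), VEGFA (-0.351), KLF9 (-0.325) and NDRG1 (-0.288). FAM13B (-0.325) fell in both, and more with Citri.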

How the results depend on the processing

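The number of genes called depended most on which libraries estimate the spread. With all 57 replicated libraries in the fit, 188 genes were called between the Citri doses (88 higher, 100 lower) against 2286, and 109 between the Cimicifugae doses, 4 for the difference of the extracts, 52 for Citri high against medium, 814 for high against vehicle, 18 for low against vehicle and 0 for medium against low (edgeR, with 215 genes at an unadjusted p under 0.05), with 26 calls among the gene lists against 148. Without the 2 libraries of other sets that stand apart in their groups (1 of Aconiti, 1 of Yijung-tang), 55 libraries gave 2408 calls between the Citri doses, of which 2130 were shared with the 2286, and 1 between medium and low. That alternative was chosen after seeing the data. The 6 Citri libraries alone gave 2223, the median-of-ratios scaling 2298, no filter on low counts 2238 and DESeq2 1936. For the difference of the extracts the count was 361 without the filter. For medium against low it was 1 with the 9 Citri libraries, 22 with DESeq2 and 114 without the filter. With the replicate number as a block the Citri doses gave 2754 calls and the difference of the extracts 210. That fit also left out the vehicle libraries, and the part of each change in these counts was not tested. Same-numbered high and low Citri libraries deviated with correlations of 0.0736, -0.0227 and 0.0109, and over both extracts 45 same-numbered pairs had a median of 0.0368 (-0.0378 to 0.19) against -0.016 (-0.155 to 0.104) for 90 other pairs. The labels name no shared batch behind the numbers and the Citri correlations are all under 0.1, and on these grounds the main fit had no block. Over both extracts, however, the same-numbered pairs had the higher median. An effect shared by replicate number was not tested.

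Leaving out 1 library at a time gave 1495 to 1878 calls between the Citri doses (680 to 838 higher and 815 to 1068 lower), 766 to 1291 for high against medium, 1 to 3 for medium against low, 4241 to 4908 for high against vehicle, 1552 to 2229 for low against vehicle, 1100 to 1585 for the Cimicifugae doses, 76 to 119 for the difference of the extracts and 123 to 132 in the gene lists. Counts moved by over 1.5 times without Citri high replicate 2 (1495, 766 and 76 for high against low, high against medium and the difference), Citri medium replicate 1 or 3 (969 for high against medium), Citri low replicate 2 (1712), vehicle replicate 1 (1552) or vehicle replicate 2 (1671) for low against vehicle, and Cimicifugae high replicate 2 (1100 for Cimicifugae and 79 for the difference). Medium against low gave 1 without Citri low replicate 3 or any of the medium replicates. Of 106 named genes that were called, 40 kept their call in all 14 alternatives, and 93 did when the fit with 57 libraries was set aside; none reversed. The cause of these shifts was not tested.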
